A study of Mus musculus with 6 samples.

Results

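The genes described here are 9 identity genes of GABAergic interneurons, the local inhibitory neurons of the hippocampus, out of 24062 gene symbols counted in each library. They were chosen by name, for GABA synthesis and transport (Gad1, Gad2, Slc32a1), for interneuron classes (Pvalb, Sst, Vip, Npy, Reln) and for interneuron lineage (Lhx6). Earlier results of these data were known when they and the gene lists below were chosen. Ventral dentate gyrus was dissected from male C57BL/6 mice that had undergone chronic restraint stress (3 libraries) or had not been stressed (3 control libraries). The labels call the replicates biological, but the mice's age, the length of the restraint and the number of mice behind each library are not given in the labels used here. The p-values therefore measure the spread between these libraries. No allele or transgene is named for either group.

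Interneurons make GABA from glutamate with a pair of glutamate decarboxylases, encoded by Gad1 and Gad2, and load it into synaptic vesicles with the transporter encoded by Slc32a1. Classes of interneuron are told apart by calcium-binding proteins and neuropeptides. Parvalbumin cells inhibit the somata and initial axon segments of granule cells, somatostatin cells of the hilus reach the outer dendrites, and vasoactive intestinal peptide cells mostly contact other interneurons. In the dentate gyrus the peptide genes Sst and Npy are used together by many hilar cells. Reelin is made by interneurons and by Cajal-Retzius cells of the molecular layer, and Lhx6 is a transcription factor of interneurons born in the medial ganglionic eminence.

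The promoters of the 3 neuropeptide genes are shown first because 2 of them, Npy and Sst, had the largest positive log2 fold changes of the 9 genes and Vip one of the largest negative ones. Each line is the 100 bases that end just before the RefSeq start of the gene on GRCm38.p6, read 5′ to 3′ on the strand of the gene. Capitals mark a full cyclic AMP response element, TGACGTCA, or a TATA box, TATAAA, searched on both strands in the 250 bases before the start. Npy lies at chr6:49822610-49822709 (plus strand), Sst at chr16:23890845-23890944 (minus strand) and Vip at chr10:5639118-5639217 (plus strand).
Npy: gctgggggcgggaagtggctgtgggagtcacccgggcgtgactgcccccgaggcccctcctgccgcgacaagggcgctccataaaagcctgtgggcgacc
Sst: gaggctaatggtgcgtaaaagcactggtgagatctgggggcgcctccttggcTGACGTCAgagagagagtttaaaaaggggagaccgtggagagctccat
Vip: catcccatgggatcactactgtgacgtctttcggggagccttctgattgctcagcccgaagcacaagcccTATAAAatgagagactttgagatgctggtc

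The full element began 48 bases before the start of Sst and was in 1 of 12 promoters of the 9 genes, against 508 of all 32851 RefSeq promoters, or 1.55%. The TATA letters began 30 bases before the start of Vip, with further copies 147 and 157 bases before it, all on the strand of Vip. They were also found once before Gad1, 141 bases from its start, but there on the opposite strand. In all promoters their share was 12.4%. The promoter of Npy held neither run of letters within its window. Only the exact letters were searched. Runs that differ by a base, such as tgacgtct in the Vip line and cataaa in the Npy line, were not counted. A match is a description of the letters only.

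Libraries held 8305753 to 10107953 gene counts, and all 9 genes passed the filter on low counts in a set of 14058 tested genes. Levels are given as CPM, which puts counts on a common library total, here adjusted by the trimmed mean of M values (TMM). Stress replicate 1 stood apart from the other 5 libraries. In it, 13 marker genes of striatal spiny neurons, which are themselves GABAergic, summed to 1108 CPM, while stress replicates 2 and 3 had 219 and 223 CPM and controls 237 to 260 CPM. Choroid plexus markers (9 genes) summed to 4801 CPM there, while stress replicates 2 and 3 had 31.7 and 27.9 CPM and controls 23.3 to 25.8 CPM. The 8 markers of dentate granule neurons summed to 397 CPM there, while stress replicates 2 and 3 had 903 and 1048 CPM and controls 792 to 907 CPM. No marker of these 3 lists was at 0 in every library. The granule markers Prox1, C1ql3, Dsp and Calb1 were detected in all 6 libraries, at 48.5 CPM or more. The log2 fold changes of the 9 genes are therefore also given without stress replicate 1.

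**Figure D1:**
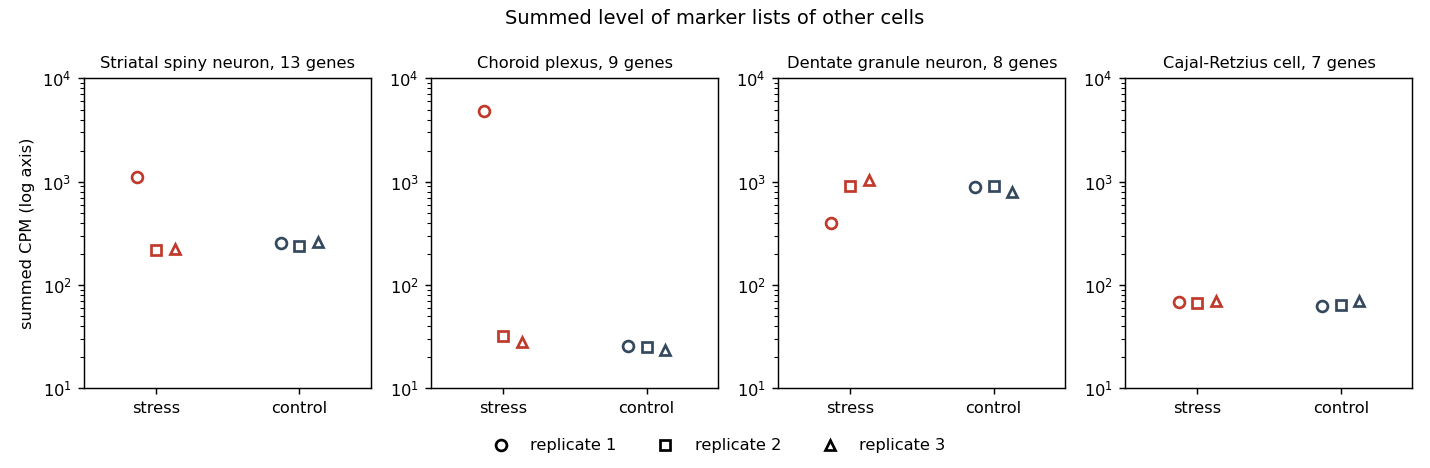
Summed CPM (log axis) of marker genes of other cells in each library, with symbols for replicates 1, 2 and 3. Stress replicate 1 lay apart from the other 5 libraries. It was at 1108 CPM for striatal markers, 4801 CPM for choroid plexus markers and 397 CPM for granule neuron markers. Sums of Cajal-Retzius markers lay between 62.5 and 70.0 CPM in all 6, although Ndnf was lowest and Cacna2d2 highest in stress replicate 1.

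None of the 9 genes passed the threshold in stress against control. By edgeR's quasi-likelihood test with Benjamini-Hochberg adjustment over all tested genes, 4 of 14058, or 0.0285%, passed at an adjusted p under 0.05, and 0 of the 9 were among them. DESeq2 and limma-voom also called 0 of the 9. At an unadjusted p under 0.05 there were 3 of the 9 (Gad1, Npy and Reln), where 8.71% of all tested genes lay. The stress and control libraries did not overlap for 4 of the 9, where 14.6% of all tested genes did not overlap. Npy lay above and Gad1, Pvalb and Reln below the controls. The 9 genes were chosen with earlier results of these data known, so these counts and shares are not a test. The median log2 fold change was 0.021 over the 9 genes and 0.0038 over all tested genes. Without stress replicate 1 these medians were -0.087 and -0.0053. In whole tissue a smaller number of cells of a type and less RNA per cell cannot be told apart.

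**Figure D2:**
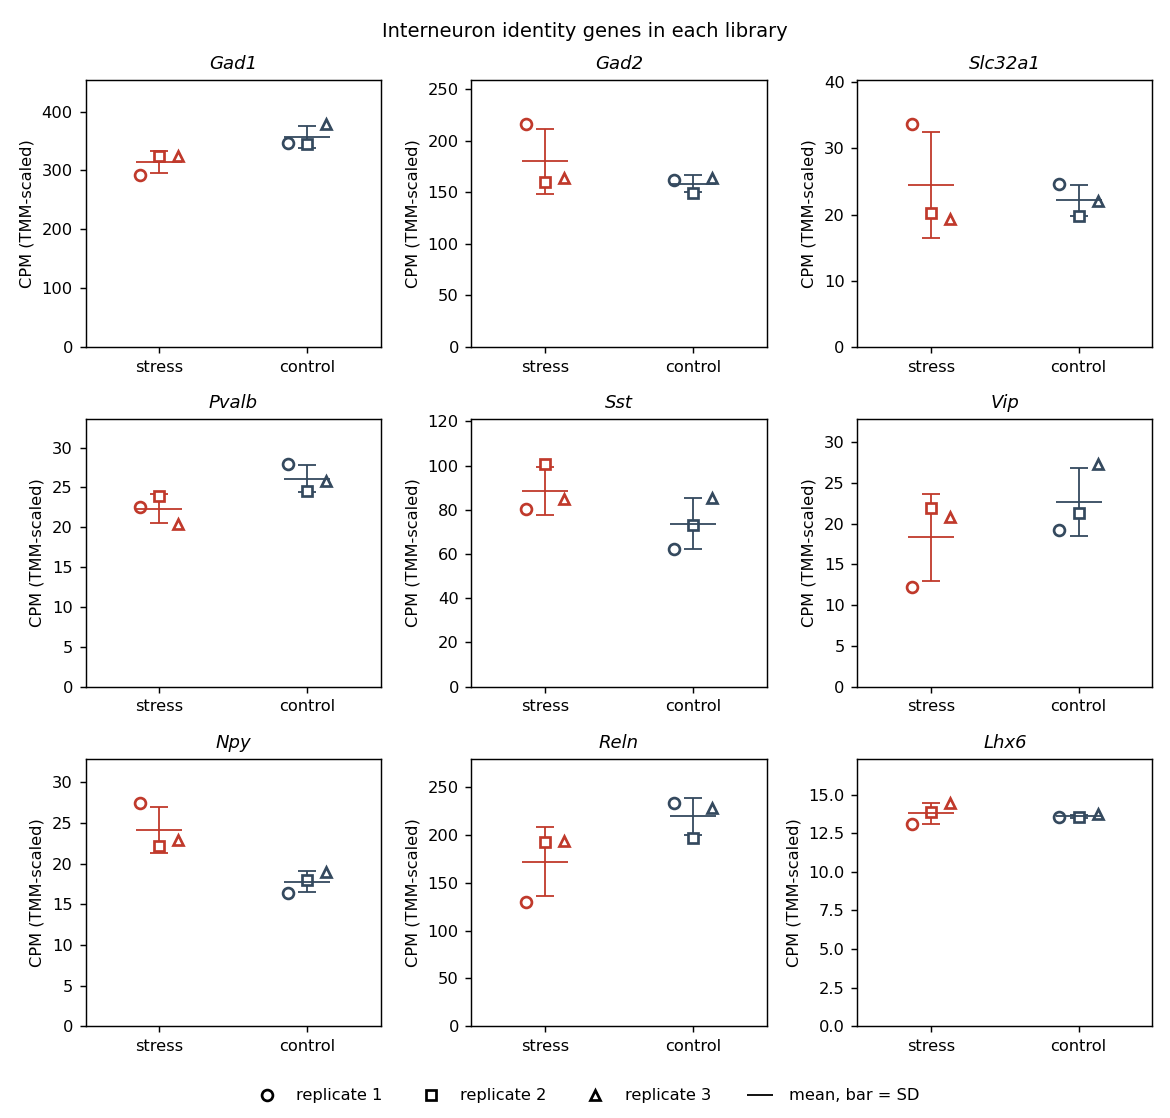
TMM-scaled CPM of the 9 genes, with symbols for replicates 1, 2 and 3, a line for the mean and a bar for the SD. Npy lay higher in all 3 stress libraries and Gad1, Pvalb and Reln lower, while Gad2 and Slc32a1 were highest in stress replicate 1.

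The genes of GABA synthesis did not move as one. Gad1, whose enzyme supplies most of the GABA pool of the cell, had 292, 324 and 325 CPM in stress replicates 1, 2 and 3, against 347, 345 and 379 CPM in control replicates 1, 2 and 3. Every stress library lay below every control. Its log2 fold change was -0.18 (SE 0.07), a fold of 0.880 with a limma-voom 95% interval of 0.785 to 0.986 that is not adjusted for the number of genes, and the adjusted p of edgeR's quasi-likelihood test was 0.540. Leaving out stress replicate 1 gave -0.14 (SE 0.07). Gad1 lies on chromosome 2 from 70553072 to 70602014.

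Gad2, for the decarboxylase that is concentrated at nerve terminals, had 216, 160 and 164 CPM in stress replicates 1, 2 and 3, against 162, 149 and 164 CPM in controls. The high value was that of stress replicate 1, and the other stress libraries lay close to control replicates 1 and 3. Its log2 fold change of 0.18 (SE 0.12), with an adjusted p of 0.732, was 0.03 (SE 0.07) without that library. Slc32a1, the vesicular GABA transporter gene, had 33.6, 20.3 and 19.3 CPM in stress replicates 1, 2 and 3, against 24.6, 19.8 and 22.0 CPM in controls. Here too stress replicate 1 was above all other libraries, and the log2 fold change of 0.14 (SE 0.20), with an adjusted p of 0.897, turned to -0.16 (SE 0.12) without it. The 4 striatal markers with the highest mean level were high in the same library. Pde10a was at 336 CPM there against 114 to 131 CPM in the other 5, Ppp1r1b at 142 against 19.5 to 23.7 CPM, Scn4b at 123 against 18.0 to 43.2 CPM and Rgs9 at 95.7 against 23.8 to 28.9 CPM. Their part in the levels of Gad2 and Slc32a1 was not tested. Gad2 lies on chromosome 2 from 22622205 to 22693874 and Slc32a1 on chromosome 2 from 158610767 to 158615748, where an antisense gene, Gm14205, overlaps its exons.

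Within a library, the ratio of Gad2 to Gad1 counts does not depend on library scaling. It was 0.738 in stress replicate 1, 0.492 in 2 and 0.505 in 3, against 0.466, 0.433 and 0.434 in control replicates 1, 2 and 3. The ratio was higher in all 3 stress libraries, also in the 2 without raised striatal markers. With 3 libraries a group an exact permutation test cannot go below 0.10, so no test is given. The ratio of Slc32a1 to Gad2 overlapped between groups, with 0.156, 0.127 and 0.118 in stress and 0.152, 0.133 and 0.134 in control.

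Among the neuropeptide genes, Npy had the smallest unadjusted p of the 9, 0.00516 by edgeR's quasi-likelihood test. Its product, neuropeptide Y, is released by hilar interneurons and dampens glutamate release. Npy had 27.4, 22.1 and 22.9 CPM in stress replicates 1, 2 and 3, against 16.3, 18.0 and 18.9 CPM in control replicates 1, 2 and 3, from 190 to 251 counts in stress and 135 to 184 counts in control. Every stress library lay above every control. The log2 fold change was 0.44 (SE 0.12), a fold of 1.36 with a limma-voom 95% interval of 1.12 to 1.63, and the adjusted p of 0.342 by edgeR's quasi-likelihood test did not pass. Leaving out stress replicate 1, where Npy was highest, gave 0.34 (SE 0.11) and an adjusted p of 0.251, the lowest in a range up to 0.758 over its alternatives. Npy lies on chromosome 6 from 49822710 to 49829507.

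Sst, the somatostatin gene, had 80.3, 101 and 84.8 CPM in stress replicates 1, 2 and 3, against 62.3, 73.2 and 85.4 CPM in controls. Control replicate 3 lay above 2 of the stress libraries, so the groups overlapped. The log2 fold change was 0.26 (SE 0.13), a fold of 1.20 with a limma-voom 95% interval of 0.983 to 1.47, and the adjusted p was 0.618. The value was 0.16 without control replicate 1 or stress replicate 2, 0.33 without stress replicate 1 and 0.39 without control replicate 3. Relative to the decarboxylase genes of the same library, Sst had 15.8, 20.8 and 17.3 counts per 100 counts of Gad1 and Gad2 in stress, against 12.2, 14.8 and 15.7 in control. The same ratio of Npy was 5.39, 4.57 and 4.67 in stress, against 3.21, 3.65 and 3.49 in control. Neither ratio overlapped between the groups, although for Sst the gap between the lowest stress library and the highest control was small. The divisor holds Gad1, which was lower in every stress library, and its part in these ratios was not tested. The same ratio of Reln went the other way without overlap, by a small gap. It was 25.7, 39.8 and 39.6 in stress, against 45.8, 40.0 and 42.1 in control. Counts of Npy per count of Sst overlapped between the groups. Sst lies on chromosome 16 from 23889573 to 23890958.

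**Figure D3:**
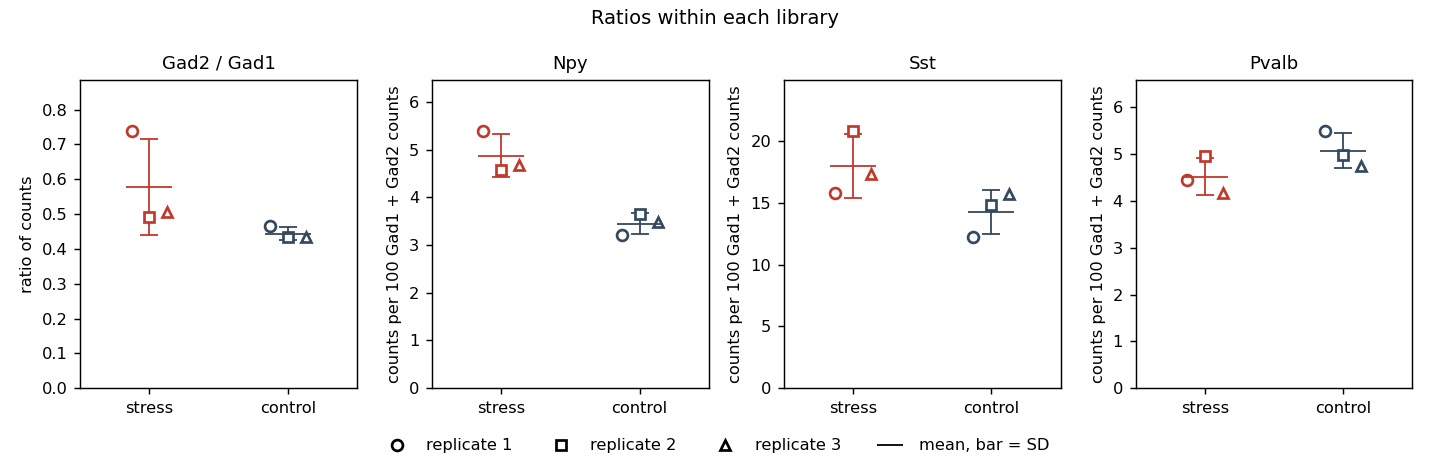
Ratios of counts within each library, with symbols for replicates, a line for the mean and a bar for the SD. The panels show Gad2 per Gad1 and Npy, Sst and Pvalb per 100 counts of Gad1 and Gad2, and stress lay above control in all but the Pvalb panel, where the groups overlapped.

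Vip, for vasoactive intestinal peptide, had 12.2, 21.9 and 20.9 CPM in stress replicates 1, 2 and 3, against 19.2, 21.4 and 27.3 CPM in controls. Only stress replicate 1, with 112 counts, lay below the controls. The log2 fold change of -0.31 (SE 0.22), with an adjusted p of 0.773, was -0.09 (SE 0.14) without that library and -0.14 without control replicate 3. Its limma-voom 95% interval reached from a fold of 0.554 to 1.12, so a difference of either sign lies within it. Vip lies on chromosome 10 from 5639218 to 5647617.

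Pvalb, the calcium buffer of fast-spiking basket and axo-axonic cells, had 22.6, 24.0 and 20.4 CPM in stress replicates 1, 2 and 3, against 28.0, 24.6 and 25.8 CPM in controls. Every stress library lay below every control, by a margin of under 1 CPM between stress replicate 2 and control replicate 2. The log2 fold change was -0.23 (SE 0.10), a fold of 0.855 with a limma-voom 95% interval of 0.728 to 1.004, and the adjusted p was 0.596. It was -0.24 (SE 0.12) without stress replicate 1, so this value did not rest on the library with striatal and choroid plexus markers. Per 100 counts of Gad1 and Gad2, Pvalb had 4.44, 4.95 and 4.16 in stress and 5.49, 4.98 and 4.75 in control, and the groups overlapped. Pvalb lies on chromosome 15 from 78191114 to 78206400.

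Reln, for the secreted protein reelin, had 131, 193 and 194 CPM in stress replicates 1, 2 and 3, against 233, 197 and 228 CPM in controls. All stress libraries lay below all controls, with stress replicate 1 far lower than the rest and the others close to control replicate 2. The log2 fold change of -0.35 (SE 0.15), a fold of 0.785 with a limma-voom 95% interval of 0.611 to 0.981 and an adjusted p of 0.559, was -0.18 (SE 0.08) without stress replicate 1, with an adjusted p of 0.419 in a range of 0.419 to 0.836 over its alternatives. The 7 markers of Cajal-Retzius cells, the other dentate source of reelin, summed to 68.8, 66.5 and 70.0 CPM in stress and 62.5, 63.9 and 69.6 CPM in control, so their sum was not lower in stress replicate 1. Ndnf and Cacna2d2, which interneurons also express, made up most of that sum, and in stress replicate 1 they went opposite ways. Ndnf was lowest there, at 20.2 CPM, with 32.1 and 39.9 CPM in stress replicates 2 and 3 and 34.3 to 37.6 CPM in control. Cacna2d2 was highest there, at 40.7 CPM, with 28.8 and 25.0 CPM in stress replicates 2 and 3 and 22.9 to 26.3 CPM in control. Trp73 is the most closely tied to Cajal-Retzius cells among the 7 markers. It was at 4.91, 1.75 and 2.60 CPM in stress and 2.30, 1.47 and 1.49 CPM in control. The high value of Trp73 was that of stress replicate 1, where choroid plexus markers were raised too. Their part in it was not tested. Without that library its log2 fold change was 0.34. Lhx1 was at 3 counts or fewer in every library. Reln lies on chromosome 5 from 21884454 to 22344702, and an antisense gene, Gm10475, overlaps its exons.

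Lhx6 was the most even of the 9 genes. It had 13.1, 13.9 and 14.4 CPM in stress replicates 1, 2 and 3, against 13.6, 13.5 and 13.7 CPM in controls, from 112 to 139 counts a library. The stress values lay on either side of the controls, its log2 fold change of 0.02 (SE 0.11) had an adjusted p of 0.973, and the limma-voom 95% interval ran from a fold of 0.858 to 1.20. The log2 fold change was 0.06 without stress replicate 1 and -0.009 without stress replicate 3. Lhx6 lies on chromosome 2 from 36081953 to 36105408.

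**Figure D4:**
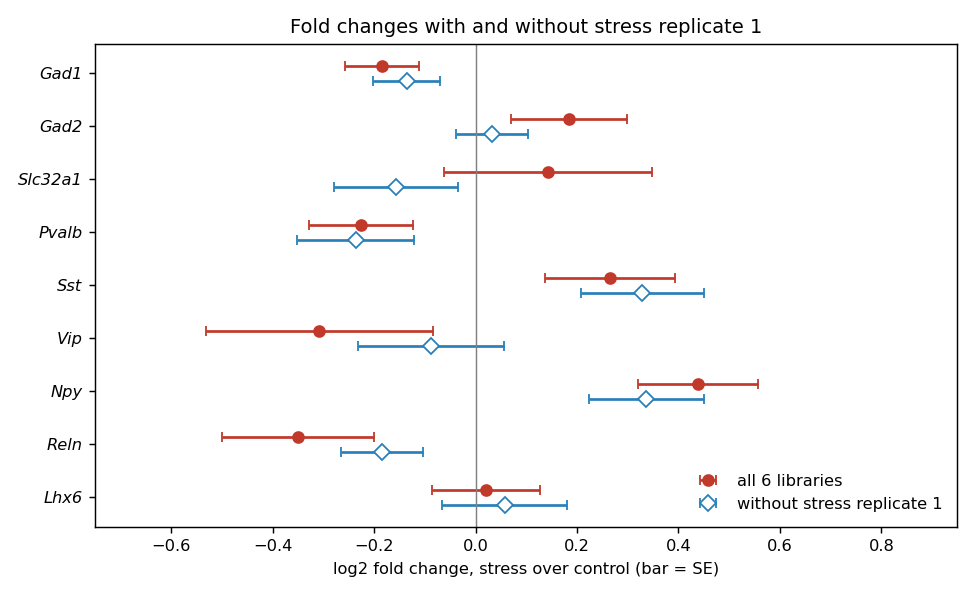
Log2 fold change of stress over control from edgeR for the 9 genes, with all 6 libraries (filled circles) and without stress replicate 1 (open diamonds), where bars are 1 SE. Leaving out that library turned Slc32a1 from 0.14 to -0.16 and brought Gad2 to 0.03 and Vip to -0.09, while Npy stayed at 0.34 and Pvalb at -0.24.

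Levels of different genes were compared per kilobase of annotated exon. The length joins all annotated exons of a gene over its transcripts. The order of the genes depends on that choice, and no other length was tried. Sst was the highest of the 9 in either group, at 123 ± 14.9 CPM per kilobase in stress and 102 ± 16.0 in control (SD, n = 3), and Lhx6 the lowest, at 2.87 ± 0.140 in stress and 2.83 ± 0.0222 in control. In stress the order below Sst was Npy at 42.6 ± 5.05, Gad1 at 41.1 ± 2.45, Gad2 at 30.6 ± 5.31, Pvalb at 21.4 ± 1.75, Slc32a1 at 8.72 ± 2.86, Reln at 7.26 ± 1.52 and Vip at 5.39 ± 1.56 CPM per kilobase. The libraries of Npy and Gad1 overlapped there, as did those of Slc32a1 and Reln and of Reln and Vip. In control the order was Gad1 at 46.7 ± 2.46, Npy at 31.4 ± 2.33, Gad2 at 27.0 ± 1.37, Pvalb at 25.1 ± 1.64, Reln at 9.26 ± 0.821, Slc32a1 at 7.91 ± 0.853 and Vip at 6.66 ± 1.23 CPM per kilobase. There Gad2 overlapped with Pvalb, Reln with Slc32a1 and Slc32a1 with Vip. Reln, with 23738 bases of exon, was thus among the highest genes by CPM and among the lowest per length.

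**Figure D5:**
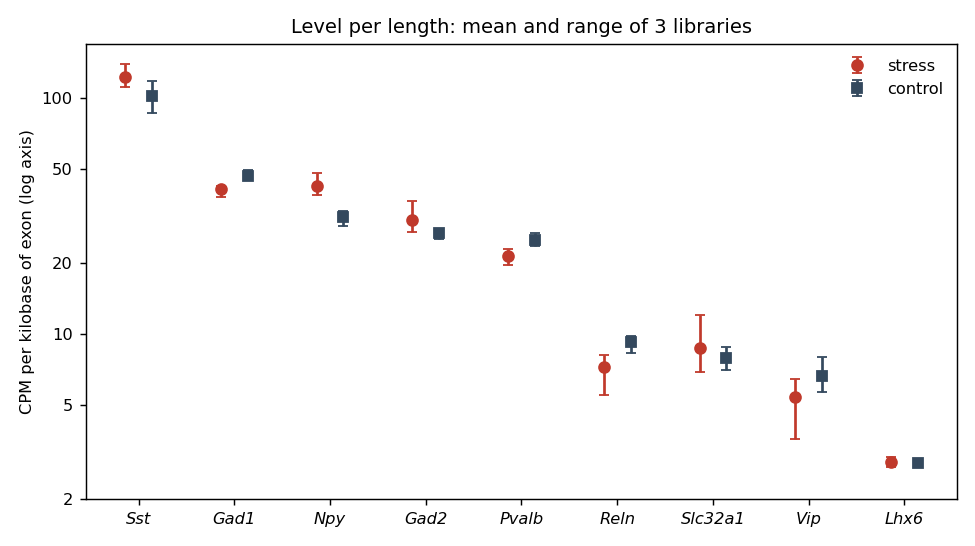
CPM per kilobase of exon (log axis) of the 9 genes, ordered by their control level, with the mean of 3 libraries and a bar from the lowest to the highest. Sst was highest in either group at 123 in stress and 102 in control, and Npy and Gad1 overlapped in stress but not in control.

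Other genes of the interneuron program were read from 3 lists. Of 16 tested interneuron transcription factor genes 0 passed in either direction, with 8 positive and 8 negative fold changes and a median log2 fold change of -0.014, against 0.0038 over all tested genes. Without stress replicate 1 these medians were -0.057 and -0.0053. Of the 16, 5 did not overlap between groups, or 31.2%, where all tested genes gave 14.6%. This list too was chosen with earlier results of these data known, so the share is not a test. Those with the smallest p, given as log2 fold changes, included Satb1 at -0.62 (SE 0.22), Sp9 at 0.93 (SE 0.36), Dlx6os1 at 0.21 (SE 0.09), Sp8 at 0.71 (SE 0.31) and Npas1 at 0.43 (SE 0.29), with adjusted p-values from 0.506 to 0.745. Npas1 was at 0.11 without stress replicate 3 and at 0.65 without stress replicate 1. Satb1, a chromatin organizer of medial ganglionic eminence interneurons that other forebrain neurons also express, had 82.0, 171 and 131 CPM in stress, against 191, 183 and 216 CPM in control. Without stress replicate 1 its log2 fold change was -0.38. Dlx6os1, a long noncoding RNA of the Dlx locus, had 41.8, 41.9 and 47.2 CPM in stress, against 36.3, 37.3 and 39.9 CPM in control. Sp8 and Sp9, zinc-finger factors of interneurons, averaged 2.33 ± 0.533 and 3.48 ± 1.60 CPM in stress, against 1.41 ± 0.391 and 1.83 ± 0.0766 CPM in control (SD, n = 3), and Sp9 was highest in stress replicate 1, at 5.24 CPM. Without that library the log2 fold change of Sp9 was 0.52.

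Of 26 tested genes of other interneuron classes 0 passed, with 10 positive and 16 negative and a median of -0.050, which was -0.015 without stress replicate 1. Of the 26, 2 did not overlap between groups, or 7.69%, a smaller share than the 14.6% of all tested genes. Syt2 had the smallest p of this list. It encodes synaptotagmin 2, a calcium sensor of vesicle release in the terminals of parvalbumin basket cells and of several neuron types outside the hippocampus. Syt2 had 20.1, 26.1 and 20.3 CPM in stress replicates 1, 2 and 3, against 35.8, 39.2 and 38.4 CPM in control replicates 1, 2 and 3. All stress libraries lay far below all controls. Its log2 fold change of -0.77 (SE 0.11) had an adjusted p of 0.197 by edgeR's quasi-likelihood test. Over its alternatives the adjusted p ran from 0.000642, given by DESeq2, to 0.686, and it passed without stress replicate 1, at 0.0400, and without stress replicate 2, at 0.0275. Kcnc1, a potassium channel gene of fast-spiking neurons, had 106, 103 and 95.5 CPM in stress, against 135, 111 and 109 CPM in control, a log2 fold change of -0.22 (SE 0.10) and an adjusted p of 0.573. The groups did not overlap for Kcnc1 either, and its log2 fold change was -0.11 without control replicate 1, the highest control. Scn4b, a sodium channel subunit gene that the striatal list holds and that was high in stress replicate 1, had 21.3 and 18.0 CPM in stress replicates 2 and 3, against 39.5, 36.7 and 43.2 CPM in control. Without stress replicate 1 its log2 fold change was -1.02, with an adjusted p of 0.0158 by edgeR's quasi-likelihood test, while with all 6 libraries it was 0.44 with an adjusted p of 0.895. The other striatal markers named above did not pass without that library, with log2 fold changes of 0.09 for Pde10a, 0.06 for Ppp1r1b and -0.21 for Rgs9.

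The remaining named genes of this list lay on the other side. Slc17a8, a vesicular glutamate transporter gene found in some cholecystokinin basket cells, gave a log2 fold change of 1.20 (SE 0.48), the cannabinoid receptor gene Cnr1 of cholecystokinin basket cells one of 0.26 (SE 0.11), the tachykinin gene Tac1 one of 1.32 (SE 0.63) and the receptor kinase gene Kit one of 0.24 (SE 0.12), with adjusted p-values from 0.534 to 0.645. Tac1 was at 29.5 CPM in stress replicate 1, while stress replicates 2 and 3 had 7.33 and 6.23 CPM and controls 4.22 to 8.51 CPM, and striatal spiny neurons express it too. Its log2 fold change was 0.24 without that library, where that of Slc17a8 was 0.54. Kit was at 0.15 without control replicate 1 and Cnr1 at 0.39 without control replicate 3.

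Of 12 tested genes of GABA uptake, breakdown and precursor supply 0 passed, with 4 positive and 8 negative and a median of -0.071, which was -0.0079 without stress replicate 1. Of the 12, 2 did not overlap between groups, or 16.7%, a share near the 14.6% of all tested genes. Slc38a1, a neuronal glutamine transporter gene, had 174, 182 and 150 CPM in stress, against 219, 210 and 213 CPM in control, a log2 fold change of -0.34 (SE 0.08) and an adjusted p of 0.273. Glul, the astrocytic glutamine synthetase gene, had 1724, 1733 and 1734 CPM in stress, against 2061, 2050 and 1721 CPM in control, and control replicate 3 lay below all stress libraries. The GABA transporter gene Slc6a13 gave a log2 fold change of -0.36 (SE 0.23), the astrocytic GABA transporter gene Slc6a11 one of -0.11 (SE 0.08), Akr7a5 one of 0.14 (SE 0.10) and the succinic semialdehyde dehydrogenase gene Aldh5a1 one of -0.07 (SE 0.08). Slc6a13 was at -0.14 and Aldh5a1 at 0.01 without stress replicate 1, and Slc6a11 at -0.06 without control replicate 3.

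Genes whose level ran most alike with the mean log2 level of Gad1, Gad2 and Slc32a1 over the 6 libraries were Nt5dc2, Cadps, Atp5o, Rtn4 and Ncoa3, with Pearson correlations of 0.989 to 0.996. Gad1 itself ran against Gad2 and Slc32a1, with correlations of -0.712 and -0.549, so the mean does not stand for Gad1. The genes most alike with Reln were Usp51, Scarna6, Camk2g, Nfrkb and Gpr137c, with correlations of 0.990 to 0.995. For these patterns 99 and 103 tested genes were above 0.95, and stress replicate 1 was the extreme library of either pattern, so these values describe mostly that library. Septal and hypothalamic GABAergic markers (10 genes) summed to 284, 234 and 269 CPM in stress and 223, 264 and 294 CPM in control. Their highest, Hap1, Meis2, Zic2 and Zic1, averaged 172 ± 33.6, 68.0 ± 31.9, 9.06 ± 1.87 and 7.52 ± 2.84 CPM in stress. In control they averaged 154 ± 20.02, 83.0 ± 15.0, 10.5 ± 1.72 and 9.22 ± 1.27 CPM (SD, n = 3). Hap1 and Meis2 made up most of each sum, so the sums describe mainly these genes, and 5 of the 10 were tested. Meis2 was at 104 CPM in stress replicate 1, 55.5 and 44.3 CPM in stress replicates 2 and 3 and 66.5 to 95.8 CPM in control. Without stress replicate 1 the log2 fold changes were 0.27 for Hap1, -0.74 for Meis2, -0.37 for Zic2 and -0.64 for Zic1. None passed, and the lowest adjusted p by edgeR's quasi-likelihood test was 0.0620, for Meis2.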

How the data were processed

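Whole-number read counts per gene symbol were deposited, 1 table per library. Tools named in the submitters' processing notes are TopHat2 2.0.9, HTSeq 0.6.1, Trimmomatic 0.33, FastQC 0.11.3 and edgeR 3.12.0, and the builds are mm10 and GRCm38 (the notes give no role for any of them). Which annotation and strand setting were used for counting is not given in the sources used here. The antisense genes Gm14205 and Gm10475 are not among the counted symbols. Without the strand setting, whether their reads were counted for Slc32a1 and Reln is not known. Per the labels, the kit removes ribosomal RNA and keeps strand. Reads counted as lying in no feature made up 59.5% to 63.1% of the reads listed. Their row and all other rows of reads assigned to no gene were left out of library totals and tests.

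Genes were kept by filterByExpr and tested with the quasi-likelihood F-test of edgeR 4.0.16 in R 4.3.3, with TMM scaling (factors 0.982 to 1.01), group as the single term, two-sided, Benjamini-Hochberg adjustment over 14058 genes and a threshold of 0.05. SEs and 95% intervals are those of limma 3.58.1 (voom). DESeq2 1.42.0, other scalings, no filter, a blocked fit by replicate number, an adjusted p under 0.10 and leaving out each library were alternatives. The edgeR fit was also run on simulated counts. No library was made to stand apart in them, so that run does not cover a library like stress replicate 1. 3 counts correspond to 0.297 to 0.361 CPM per library, a limit for counting error alone. Every pair of libraries differed by more than sampling noise (lowest chi-square per degree of freedom 3.09).

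Exon lengths and positions are those of GENCODE M21 on GRCm38, matched by symbol for 94.4% of symbols, and all 9 genes matched. Promoters are from RefSeq (GRCm38.p6). Log2 levels for correlations are log2(CPM + 0.5). The members and lists were chosen with earlier results of these data known. Named besides the 9 genes are the 6 genes with the smallest p of each of 3 pathway lists. From each of 5 lists of other cells, up to 4 marker genes with the highest mean CPM are named. Also named are the 5 genes most alike with the mean of the synthesis genes and the 5 most alike with Reln. Lhx1 and the antisense genes were named after their values were seen. 1 gene that this rule takes is not reported here.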

Additional observations from a re-analysis of the deposited data

How the results depend on the processing

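None of the 9 genes passed under any of the alternatives, and the lowest adjusted p among them was 0.251, for Npy without stress replicate 1. Of 108 values of the 9 genes under 12 alternatives each, 106 kept their direction. The exceptions were Slc32a1, at -0.16 to 0.29 on the log2 scale with 1 library left out, and Lhx6, at -0.009 to 0.0573 likewise. Of 216 values of the 18 genes taken from the pathway lists, 212 kept their direction and their side of the threshold, 3, all of Syt2, passed, and Aldh5a1 reversed, at -0.12 to 0.0096 with 1 library left out. Over all tested genes the count past the threshold, 4, was 106 with DESeq2 and 1 with limma-voom, and with 1 library left out it was 41 without stress replicate 1, 28 without stress replicate 2 and 0 without any of the other 4. With the replicate number as a block it was 0, and log2 fold changes of the 9 genes kept their direction, with Npy at 0.43. Deviations of same-numbered libraries had correlations of 0.137, -0.00759 and 0.0425, and not every library correlated best with its own number, so the numbers were not taken to pair the libraries. The causes of these shifts were not tested. Depth limits Vip, Lhx6, Npy, Slc32a1 and Pvalb most, at 112 to 308 counts a library, and 3 libraries a group limit every comparison.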
